A study of Mus musculus with 12 samples.

Results

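The genes encoding collagen chains were followed in RNA-sequencing libraries made from tumourspheres of 3 spindloid cell lines derived from mouse mammary tumours. Members were the rows of the count table whose symbol names a collagen chain (Col, a type number, a, a chain number) and that had at least 60 counts summed over the 12 libraries. This gave 27 of 44 collagen rows, out of 55573 genes in the table: 9 fibrillar chains, 4 type IV chains and 14 chains of other types. The other 17 rows held at most 31 counts in all and 4 of them (Col9a1, Col19a1, Col10a1 and Col9a2) had no count, whereas the lowest member, Col9a3, had 60. Of the 27 members, 26 passed the filter on low counts and were tested, and Col9a3 did not pass.

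The lines A1005, A1129 and A1471 carry the genotype MMTV-Metmt;Trp53fl/+;Cre in every group, controls included, that is an activated Met transgene driven by the mammary MMTV promoter together with Cre and a floxed allele of Trp53. Each line came from its own tumour, and neither strain nor age is given in the labels. Tumourspheres, cells grown in suspension as spheres, were exposed for 24 h to the vehicle DMSO, to the Met kinase inhibitor Crizotinib, to the FGF receptor inhibitor PD173074, or to both inhibitors (labelled Combo). Each treatment had 1 library per line (n = 3 lines), and total counts ran from 13031492 to 17750476.

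Collagen chains assemble into triple helices in the endoplasmic reticulum after their prolines and lysines have been hydroxylated. The fibrillar types (I, II, III, V, XI, XXIV and XXVII) form the rope-like fibres of connective tissue, and type IV forms the sheet-like network of basement membranes, on which epithelial cells rest. The remaining types include type VI, which builds beaded microfilaments, the FACIT collagens such as type XII that sit on fibrils, the anchoring type VII, and type XVIII, a basement membrane proteoglycan whose C-terminal fragment is endostatin. In the mammary gland the fibrillar matrix is laid down mostly by stromal fibroblasts, and tumour cells with mesenchymal features can make it too.

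The labelled spindle-like state was checked against marker genes. Of 8 mesenchymal markers, Snai2 (no count in 4 libraries, at most 2.41 CPM) and Cdh2 (at most 6 counts) were low or without counts, and the other 6 were detected in every library. Among these, Vim, the mesenchymal intermediate filament, ranged from 1903 to 3204 CPM (counts scaled to library sizes normalised by TMM), whereas the epithelial genes Krt5 and Cldn7 had no count in any library. Cdh1, the epithelial cadherin, had at most 9 counts, and Krt14 at most 11. The epithelial genes Krt18 (53 to 748 counts), Krt8 (17 to 611) and Epcam (3 to 29) were detected in every library. The 7 epithelial markers together summed to between 7.32 and 52.3 CPM. The 4 endothelial markers summed to at most 0.752 CPM. Of the 5 blood cell markers, Ptprc, the pan-leukocyte phosphatase, had 174 to 339 counts in A1005 libraries and at most 2 in the other lines, and Cd68, a lysosomal protein of macrophages and other cells, had 62 to 439 counts across libraries. Adgre1, Cd3e and Cd79a were low or without counts, with at most 1, 2 and 5 counts in any library. The part of these transcripts in the collagen results was not tested. In bulk RNA, fewer cells that make a transcript and less of it per cell cannot be told apart.

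The sequences just upstream of the start sites are shown for 5 members on which the results below turn. They are the parts of the RefSeq promoter windows (build GRCm38.p6, from 250 bases before to 50 after the start) that lie before the start and outside annotated untranslated regions, written 5′ to 3′ on the strand of the gene. Capitals mark matches, on either strand, to 5 short motifs. These are CCAAT (the letters of the box of that name), GGGCGG (the core bound by Sp1), TATAAA (the core of the TATA element), TGANTCA (bound by AP-1) and TGTTTAC (bound by forkhead factors), and no 2 of the motifs share letters in the sequences shown. Col4a5 and Col4a6 are shown as a pair because they lie head to head, with start sites 1343 bases apart on opposite strands of chromosome X, and changed together.
Col4a5, chrX:141475169-141475384, plus strand: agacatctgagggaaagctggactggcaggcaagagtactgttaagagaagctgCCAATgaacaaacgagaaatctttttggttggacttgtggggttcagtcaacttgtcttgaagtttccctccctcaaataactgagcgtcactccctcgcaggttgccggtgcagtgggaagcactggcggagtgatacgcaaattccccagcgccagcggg
Col4a6, chrX:141474077-141474326, minus strand: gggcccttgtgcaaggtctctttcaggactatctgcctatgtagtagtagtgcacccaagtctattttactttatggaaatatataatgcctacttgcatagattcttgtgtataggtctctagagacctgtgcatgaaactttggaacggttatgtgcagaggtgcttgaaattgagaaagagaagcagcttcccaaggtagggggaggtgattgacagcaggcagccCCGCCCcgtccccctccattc
Col3a1, chr1:45311288-45311537, plus strand: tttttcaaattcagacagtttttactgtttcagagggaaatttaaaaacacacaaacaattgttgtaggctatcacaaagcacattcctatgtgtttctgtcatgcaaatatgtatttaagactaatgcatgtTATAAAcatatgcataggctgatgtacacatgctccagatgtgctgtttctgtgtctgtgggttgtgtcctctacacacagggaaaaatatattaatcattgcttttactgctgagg
Col11a1, chr3:114030290-114030539, plus strand: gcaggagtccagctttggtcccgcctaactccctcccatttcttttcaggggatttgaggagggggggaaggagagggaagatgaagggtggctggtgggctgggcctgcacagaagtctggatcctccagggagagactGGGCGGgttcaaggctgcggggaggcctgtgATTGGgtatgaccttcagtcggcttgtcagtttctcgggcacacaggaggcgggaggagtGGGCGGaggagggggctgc
Col6a1, chr10:76726169-76726294, minus strand: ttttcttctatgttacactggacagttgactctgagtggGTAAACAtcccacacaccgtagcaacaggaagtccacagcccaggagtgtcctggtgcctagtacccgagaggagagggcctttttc

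Windows were found for 22 of the 27 members, with none for Col1a1, Col5a2, Col9a3, Col12a1 and Col14a1. The letters GGGCGG stood in the windows of 17 of the 22 (77.3%) and in 35.7% of all 32851 windows. A member was counted when any of its windows matched, and Col18a1 and Col6a2 had more than 1. The shares over all are of single windows, so the units differ somewhat. They were present in 6 of 7 fibrillar, 4 of 4 type IV and 7 of 11 other windows. CCAAT was found in 11 of the 22 (50%, against 37.4% of all windows), and TATAAA in 3 (13.6%, against 13.6%), which were Col3a1, Col11a2 and Col17a1. TGANTCA (7.81% of all windows) and TGTTTAC (3.65%) were each found in 1 member, Col6a1. These counts cover whole windows, so some matches lie outside the sequences shown, such as TGANTCA in Col6a1 and GGGCGG in Col4a5. A match is a description of the letters and says nothing of binding. The other head-to-head pair, Col4a1 and Col4a2 on chromosome 8, has start sites 21 bases apart and was not called in any comparison described below.

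The lines differed widely in which collagens they expressed. Levels are given as TPM (counts divided by exon length and scaled to the same sum in each library), so that genes can be set against each other. The 27 members together held between 0.122% and 0.316% of all TPM. In A1005 the fibrillar chains made up 41.0% to 57.1% of collagen TPM and type IV chains 15% to 21.1%. In A1129 fibrillar chains made up 2.22% to 3.18% and type IV chains 63.5% to 67.2%. In A1471 the shares were 8.51% to 13.3% fibrillar and 42.6% to 46.7% type IV. These ranges did not overlap between lines for either class, whatever the treatment. The same order can be followed by gene and library in the plot of collagen levels.

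**Figure D1:**
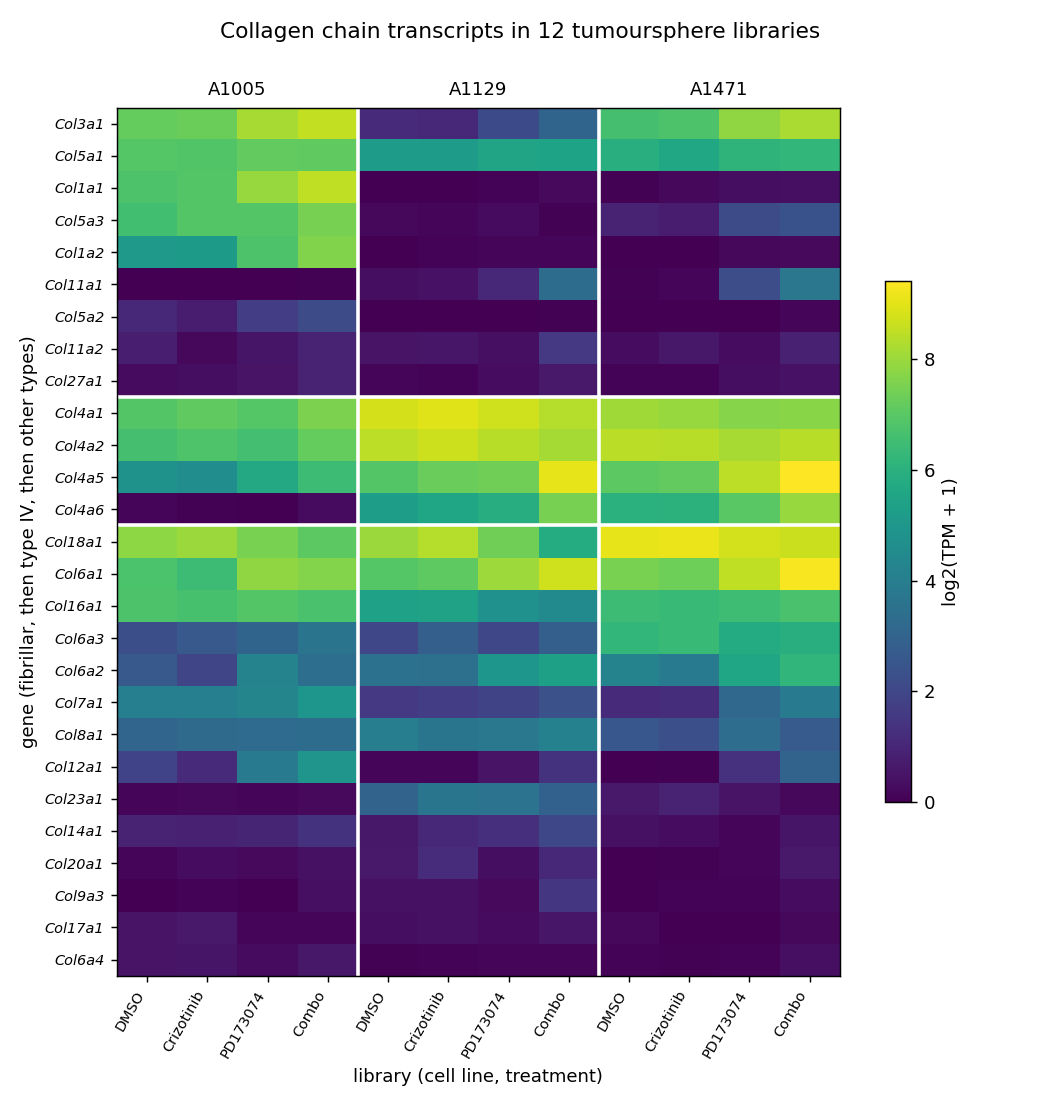
Level of each of the 27 collagen genes (rows, grouped as fibrillar, type IV and other types) in each of the 12 libraries (columns, grouped by cell line), as log2(TPM + 1) from dark (none) to yellow (highest). Col1a1 and Col1a2 are bright in the 4 A1005 libraries and near 0 in the 8 others, Col4a6 shows the opposite pattern, and Col4a5 is brightest in the Combo column of each line.

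Type I collagen, the main protein of connective tissue fibres, is built from the products of Col1a1 (chr11:94936224-94953042) and Col1a2 (chr6:4504814-4541544). Col1a1 reached 2929, 3623, 8781 and 13654 counts in A1005 with DMSO, Crizotinib, PD173074 and Combo, against at most 5 counts in A1129 and at most 9 in A1471. Col1a2 gave 1697, 1938, 7289 and 13903 counts in A1005, and at most 6 and 10 in A1129 and A1471. Nearly all type I counts were thus those of A1005. The minor fibrillar chain Col5a3 followed the same distribution, with 2615 to 6874 counts in A1005, 1 to 6 in A1129 and 20 to 121 in A1471, and Col5a2 had 28 to 185 counts in A1005 and at most 5 elsewhere. Col4a6 stood the other way round, with 1 to 9 counts in A1005 against 1351 to 6403 in A1129 and 2200 to 8453 in A1471.

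Counting members whose 4 libraries of one line lay wholly above or below the 8 libraries of the others, A1005 was above both for 6 of 26 (Col5a1, Col1a1, Col1a2, Col5a3, Col7a1 and Col5a2, where 12.3% of all genes tested did so) and below both for 5 (Col4a1, Col4a2, Col4a5, Col4a6 and Col11a1, against 9.81% of genes). A1129 was above both for 3 (Col4a1, Col8a1 and Col23a1, against 6.78%) and below both for 4 (Col3a1, Col5a1, Col16a1 and Col5a3, against 5.63%). A1471 was above both for 2 (Col18a1 and Col6a3, against 4.34%) and below both for none (against 6.17%). The members above in A1005 were therefore 5 fibrillar chains and the anchoring fibril chain Col7a1, and the type IV chains were all below in A1005.

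The collagen with the highest TPM in the DMSO library was Col18a1 in A1005 (225 TPM) and in A1471 (533 TPM), and Col4a1 in A1129 (442 TPM). With Combo it was Col3a1 in A1005 (378 TPM) and Col4a5 in A1129 (535 TPM) and A1471 (679 TPM). The leading collagen of each line thus differed between the vehicle and the combined inhibitors. Summed over all 27 members, TPM was 1225, 1449 and 1865 with DMSO in A1005, A1129 and A1471 and 2214, 1978 and 3164 with Combo, that is 1.81, 1.37 and 1.70 times as high.

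**Figure D2:**
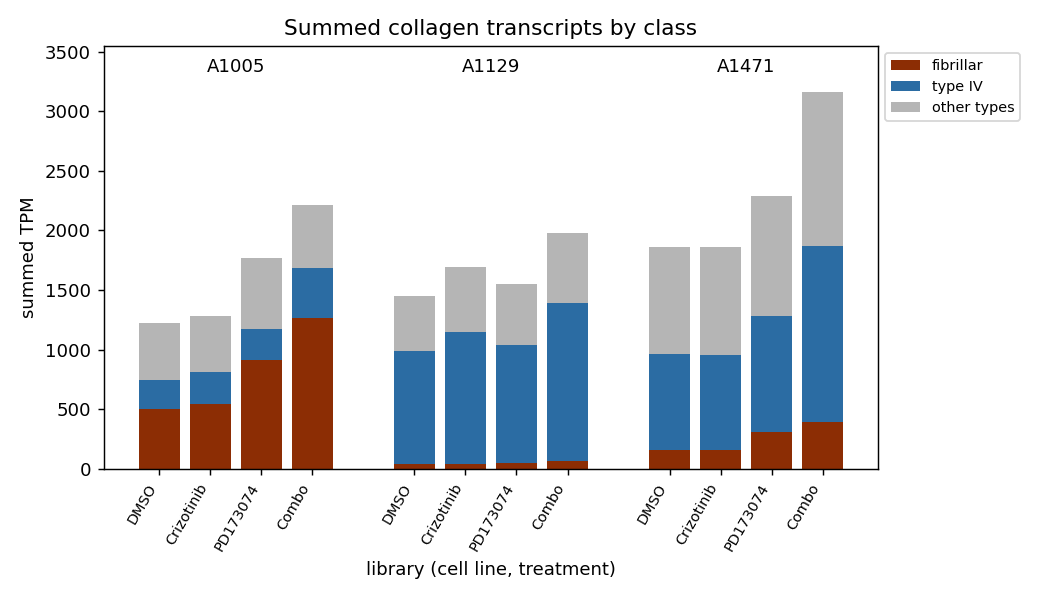
Summed TPM of the fibrillar (brown), type IV (blue) and other (grey) collagen genes in each of the 12 libraries, grouped by cell line, 1 library per bar. The Combo bar is the tallest in each line, with most of its brown part in A1005 (1265 TPM) and its largest blue parts in A1129 (1330 TPM) and A1471 (1477 TPM).

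The summed fibrillar level was 503, 37.5 and 161 TPM with DMSO in A1005, A1129 and A1471, 909, 49.4 and 305 with PD173074, and 1265, 61.7 and 389 with Combo, or 2.52, 1.64 and 2.42 times the DMSO level. Type IV chains summed to 1.71, 1.39 and 1.84 times the DMSO level with Combo. The other types summed to 1.11, 1.28 and 1.44 times that level. With Crizotinib the 3 classes stayed between 0.986 and 1.19 times DMSO in all lines. Between lines the spread with DMSO was as large as the mean for the fibrillar class (234 ± 241 TPM, SD, n = 3). It was smaller than the mean for type IV (667 ± 373) and other types (612 ± 251). Sums were compared within lines and not tested.

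The effect of blocking both receptors was asked first, since the study was designed around the combination. In the unpaired fit of edgeR, meant from here on by "without the block" where no other tool is named, 1 of 26 members was higher with Combo than with DMSO at an adjusted p under 0.05 (6.1% of all genes tested were) and none was lower (8.28%). The same fit gave 6 members an unadjusted p under 0.05 (28.9% of genes). DESeq2, also unpaired, called 5 members, all higher (9.83% of genes), which were Col6a1, Col6a2, Col11a1, Col27a1 and Col4a5. It tested 23 members, among them Col9a3, which the filter on low counts had kept out of edgeR. It gave Col1a1, Col1a2, Col5a2 and Col5a3 no p in any comparison, so for these the lack of a call is not a result. When the cell line was entered as a block, which compares the libraries of a line with each other, 16 members rose (28.6% of genes) and 1 fell (26.2%). Those 16 were all 9 fibrillar chains, 2 of 4 type IV chains and 5 of 13 other chains. The median log2 fold change of the members was 1.42 without and 1.45 with the block, against 0.02 and 0.03 over all genes. Within lines, 18 of 26 members were higher with Combo in all 3 lines, as were 34.0% of genes, and 1 was lower in all 3, as were 31.9%. Among the 18 were Col1a1, Col1a2 and Col5a2, with at most 10 counts in any A1129 or A1471 library.

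**Figure D3:**
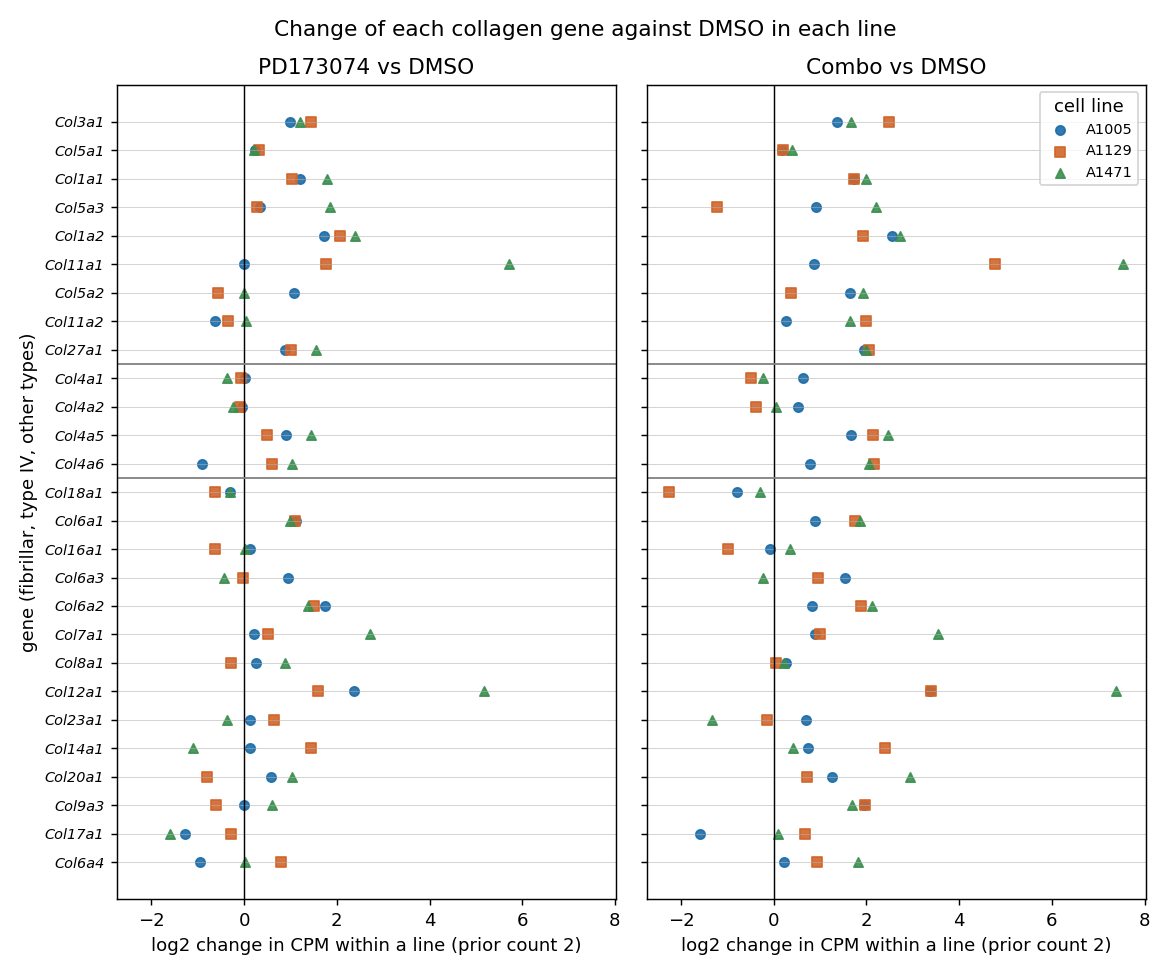
Log2 change in CPM (prior count of 2) within each cell line for PD173074 against DMSO (left) and Combo against DMSO (right), with a blue circle for A1005, an orange square for A1129 and a green triangle for A1471, for each of 27 collagen genes. On the right all fibrillar symbols except that of Col5a3 in A1129 (5 counts with DMSO and 1 with Combo) lie above 0, Col4a5 and Col4a6 lie above 0, and Col18a1 lies below 0 in all lines. Some symbols above 0 also rest on few counts. These are Col1a1, Col1a2 and Col5a2 in A1129 and A1471 (at most 10), and Col11a1 (at most 2) and Col4a6 (at most 9) in A1005.

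The one member called by edgeR without the block was Col6a1 (chr10:76708792-76726168), the chain common to type VI microfilaments. In the order DMSO, Crizotinib, PD173074 and Combo, used for all series of 4 values from here on, it stood at 106, 85.6, 230 and 202 TPM in A1005, at 121, 134, 262 and 428 in A1129, and at 184, 160, 365 and 632 in A1471. Both groups given PD173074 lay above every DMSO and Crizotinib library. Its log2 fold change with Combo was 1.63 ± 0.41 (SE, n = 3, adjusted p = 0.0276), or 3.09-fold, and 1.54 ± 0.19 with the block (adjusted p = 0.000121). Without the block Col6a1 was not called when A1129 (1.59 ± 0.65, adjusted p = 0.259) or A1471 (1.42 ± 0.34, adjusted p = 0.122) was left out, nor was any other member, and 7 members were called when A1005 was left out. Over all genes, in either direction, those fits called 324, 120 and 2021, against 1990 with all lines.

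Col6a2, the second short chain of type VI, moved with it, at 5.21, 2.87, 17.6 and 9.48 TPM in A1005, 10.4, 10.1, 29.5 and 40.0 in A1129 and 17.4, 13.4, 45.5 and 71.5 in A1471. It rose by a log2 of 1.68 ± 0.27 with the block (adjusted p = 0.000525), and without it DESeq2 called it (adjusted p = 0.042) whereas edgeR did not (1.90 ± 0.77, adjusted p = 0.132). Col6a1 was at 8.01 to 29.9 times the TPM of Col6a2 in all libraries. The long chain Col6a3 behaved otherwise, with 185, 287, 462 and 759 counts in A1005, 161, 323, 145 and 332 in A1129 and 3886, 4036, 2787 and 3028 in A1471. It was higher with Combo in 2 lines and lower in A1471, the line with the highest level, and was not called (0.71 ± 0.32 with the block, adjusted p = 0.0853). With A1471 left out it passed (1.28 ± 0.35, adjusted p = 0.0301). The ratio of Col6a1 to Col6a3 TPM was 2.50 in A1471 with DMSO and 10.7 with Combo. Col6a4 had at most 25 counts in any library.

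Type IV chains are encoded by pairs of head-to-head genes, and in these lines the pairs behaved differently. Col4a5 (chrX:141475385-141689234), which lies behind the first promoter sequence shown above, stood at 26.8, 23.2, 50.2 and 87.2 TPM in A1005, 117, 151, 166 and 535 in A1129 and 131, 139, 354 and 679 in A1471. Its partner Col4a6 (chrX:141165403-141474076) gave 1351, 1587, 1873 and 6403 counts in A1129 and 2212, 2200, 4374 and 8453 in A1471, with 3, 1, 1 and 9 in A1005. The Combo library was the highest of its line for both genes. With the block, Col4a5 rose by a log2 of 2.10 ± 0.22 (adjusted p = 4.1e-05) and Col4a6 by 2.11 ± 0.18 (adjusted p = 1.46e-05). Without it edgeR called neither (adjusted p = 0.158 and 0.643), and DESeq2 called Col4a5 (adjusted p = 0.0439) and not Col4a6. The spread between lines was wide, with A1005 lowest for both. The 2 genes kept a TPM ratio of 2.08 to 3.31 in the 8 libraries of A1129 and A1471.

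Col4a1 (chr8:11198423-11312826) and Col4a2 (chr8:11312805-11449287), the chains found in nearly all basement membranes, gave another picture. Col4a1 stood at 119, 136, 120 and 188 TPM in A1005, 442, 498, 423 and 331 in A1129 and 265, 250, 205 and 214 in A1471. Col4a2 stood at 98.8, 112, 95.4 and 144 TPM in A1005, 357, 411, 339 and 284 in A1129 and 345, 337, 290 and 337 in A1471. With Combo both were higher in A1005 and lower in A1129, and neither was called (log2 fold change with the block 0.00 ± 0.19, adjusted p = 0.995, and 0.08 ± 0.17, adjusted p = 0.698). Their ratio was 1.16 to 1.30 in A1005 and A1129 and 0.635 to 0.768 in A1471. The 5′ ends of the 2 genes overlap, and without a stated strand setting reads there cannot be divided between them. The ratio of Col4a5 to Col4a1 TPM went from 0.264 with DMSO to 1.62 with Combo in A1129, from 0.494 to 3.18 in A1471, and from 0.224 to 0.464 in A1005. Col4a3 and Col4a4 were under the count minimum.

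**Figure D4:**
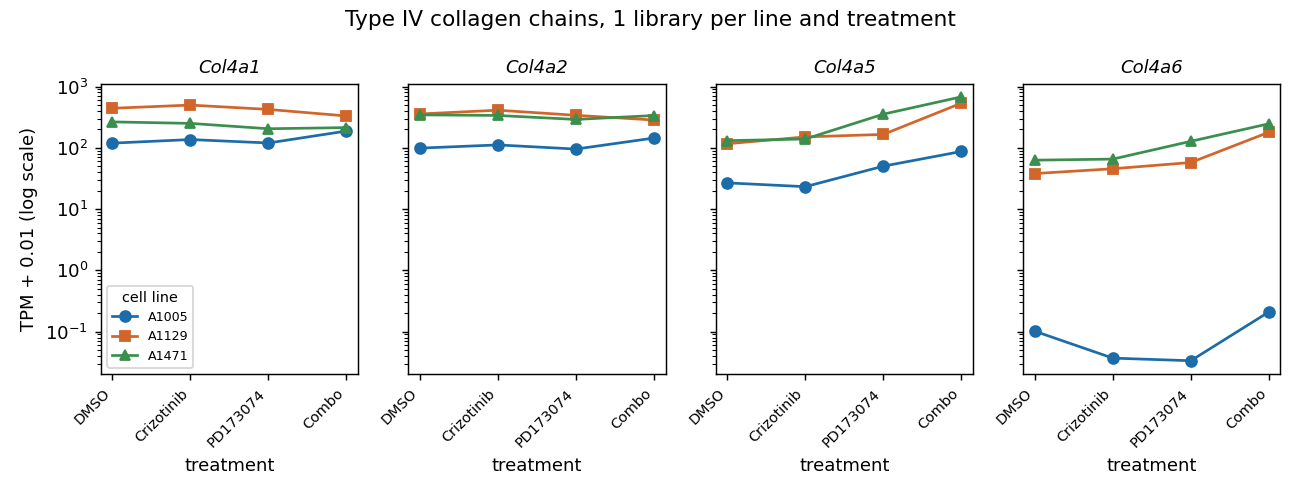
TPM (plus 0.01, log axis) of the 4 type IV chains under each treatment, 1 point per library, with lines joining the libraries of one cell line (A1005 blue circles, A1129 orange squares, A1471 green triangles). Col4a1 and Col4a2 lie between 95.4 and 498 TPM throughout, whereas Col4a5 and Col4a6 are highest with Combo in every line and Col4a6 stays near the floor in A1005.

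Among the fibrillar chains, Col3a1 (chr1:45311538-45349706), the type III chain of reticular fibres, was the most abundant in the table. It stood at 144, 156, 286 and 378 TPM in A1005, at 1.19, 1.14, 3.34 and 7.24 in A1129, and at 99.3, 108, 228 and 297 in A1471. In each line the PD173074 and Combo libraries were above the DMSO and Crizotinib libraries. With the block Col3a1 rose by a log2 of 1.80 ± 0.21 (adjusted p = 7.69e-05), and it was not called without the block (1.5 ± 1.95, adjusted p = 0.677). The type I chains rose by 1.83 ± 0.24 (Col1a1, adjusted p = 0.000163) and 2.59 ± 0.32 (Col1a2, adjusted p = 0.00011) with the block, with nearly all counts from A1005, and neither passed the filter on low counts once A1005 was left out. The ratio of Col1a1 to Col1a2 TPM in A1005 was 3.27, 3.54, 2.28 and 1.86. Its level, though not its order across treatments, rests on the exon lengths used, 6563 bases for Col1a1 and 12426 for Col1a2. The type I helix holds a pair of alpha 1 chains for each alpha 2 chain, but a ratio of RNA does not measure that of the chains.

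Type V collagen, which is built into type I fibrils, showed a small difference in its main chain. Col5a1 stood at 121, 114, 141 and 139 TPM in A1005, 35.3, 35.3, 44.0 and 42.4 in A1129 and 59.9, 48.4, 69.1 and 73.6 in A1471. It was higher with Combo than with DMSO in all lines, by a log2 of 0.26 ± 0.10 with the block (adjusted p = 0.0485), and was not called when any one line was left out (0.20 to 0.31, adjusted p = 0.0945 to 0.148). Col5a2 (1.91 ± 0.58, adjusted p = 0.0179) and Col5a3 (1.24 ± 0.43, adjusted p = 0.0312) also passed with the block, on counts that come almost wholly from A1005. Without that line Col5a2 did not pass the filter, and Col5a3 was not called when any one line was left out (0.73 to 1.63, adjusted p = 0.0561 to 0.112). In A1129 Col5a3 had 5 counts with DMSO and 1 with Combo.

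Col11a1 (chr3:114030540-114220718), a type XI chain best known from cartilage, showed the largest fitted change among the members. Its counts were 0, 0, 0 and 2 in A1005, 16, 21, 55 and 518 in A1129 and 2, 5, 199 and 669 in A1471. It was thus all but absent with DMSO and reached 9.08 and 12.2 TPM with Combo in 2 of the 3 lines, while A1005 remained at the floor of 3 counts or under it. With the block it rose by a log2 of 6.01 ± 0.76 (adjusted p = 0.00013), a value that was 8.39 without A1129 and 4.97 without A1471. Without the block it differed by 6.07 ± 2.47 in edgeR (adjusted p = 0.135), and DESeq2 called it (adjusted p = 0.0433). The companion Col11a2, at 5 to 61 counts, rose by 1.37 ± 0.48 (adjusted p = 0.0342) with the block (2.05 without A1005), and Col27a1, at 4 to 66 counts, by 2.26 ± 0.33 (adjusted p = 0.000312, against 0.0554 in edgeR and 0.0124 in DESeq2 without the block). Col11a2 was not called without A1129 (0.91 ± 0.65, adjusted p = 0.297) or without A1471 (1.21 ± 0.58, adjusted p = 0.143). Both genes lay under 2 TPM in every library.

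**Figure D5:**
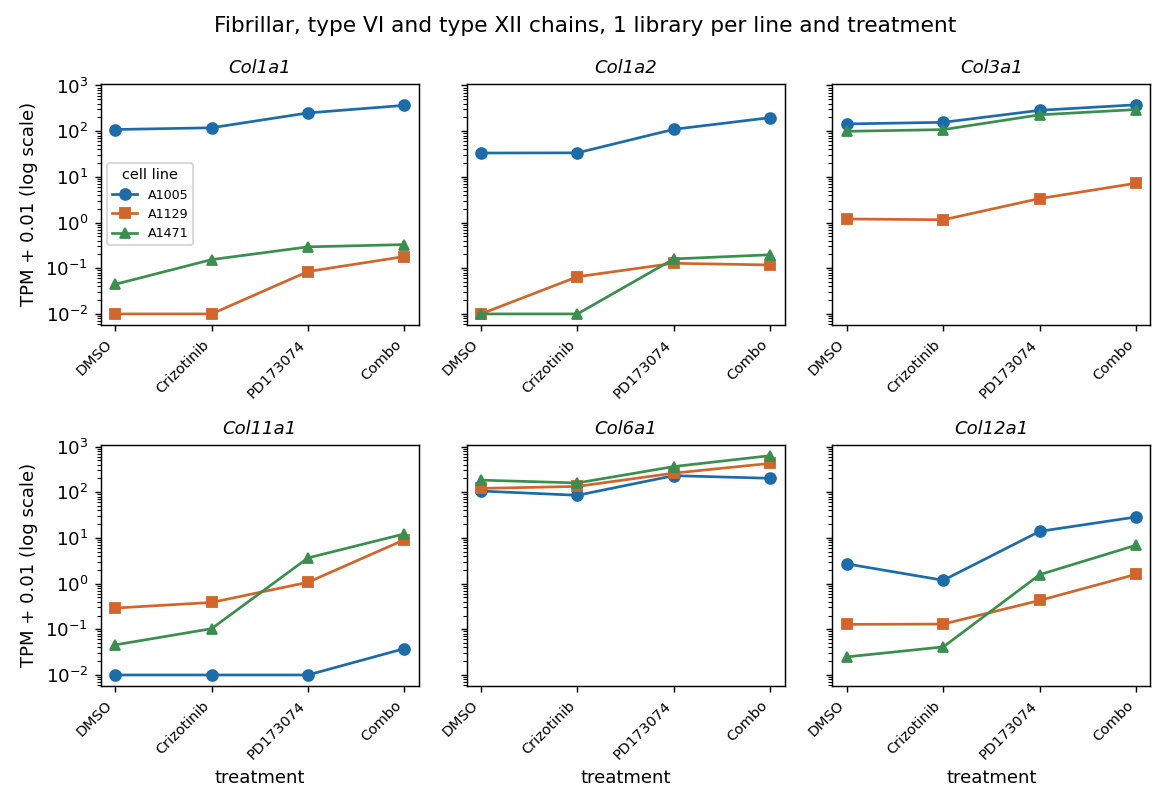
TPM (plus 0.01, log axis) of Col1a1, Col1a2, Col3a1, Col11a1, Col6a1 and Col12a1 under each treatment, 1 point per library, with lines joining the libraries of one cell line (colours and symbols as in the type IV plot). Col1a1 and Col1a2 are 2 or more orders of magnitude higher in A1005 than in the other lines, Col11a1 reaches 9.08 and 12.2 TPM with Combo in A1129 and A1471, and Col12a1 is highest with Combo in all 3 lines.

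Of the other types, Col12a1 (chr9:79598991-79718831), a FACIT chain that decorates fibrils in tissue under load, gave 168, 83, 1130 and 2474 counts in A1005, 8, 8, 26 and 108 in A1129 and 1, 2, 102 and 452 in A1471. It was higher with Combo than with PD173074, and higher with PD173074 than with DMSO, in each line. With the block it rose by a log2 of 4.33 ± 0.58 (adjusted p = 0.000186), a value that was 5.74 without A1005 and 3.49 without A1471. Without the block it was not called (3.71 ± 2.0, adjusted p = 0.259). Col7a1, the chain of anchoring fibrils that fix epithelium to the dermis, gave 671, 742, 1011 and 1737 counts in A1005, 89, 102, 117 and 188 in A1129 and 54, 59, 355 and 594 in A1471. It rose by 1.73 ± 0.52 with the block (adjusted p = 0.0163), and was not called when A1129 was left out (2.05 ± 0.70, adjusted p = 0.0547). The value was 2.34 without A1005 and 0.94 without A1471. Col14a1, another FACIT chain, had 4 to 98 counts and rose by 1.33 ± 0.41 (adjusted p = 0.0191), and was not called without A1129 (0.66 ± 0.40, adjusted p = 0.225).

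The one member that fell was Col18a1 (chr10:77052178-77166548). It stood at 225, 253, 182 and 132 TPM in A1005, 256, 325, 166 and 56.2 in A1129 and 533, 567, 433 and 405 in A1471. In each line the order was Crizotinib, DMSO, PD173074 and Combo from high to low. It fell by a log2 of 1.0 ± 0.33 with the block (adjusted p = 0.0242) and was not called without it (-0.72 ± 0.71, adjusted p = 0.566) or, with the block, without A1005 (-1.10 ± 0.47, adjusted p = 0.085). Slc19a1 overlaps Col18a1 on the other strand, with 5900 counts in all against 109912 for Col18a1.

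The members that did not pass either test with Combo were Col4a1, Col4a2, Col6a3, Col6a4, Col8a1, Col16a1, Col17a1, Col20a1 and Col23a1. Col16a1, a FACIT chain, was at 100 to 118 TPM in A1005, 21.5 to 42.3 in A1129 and 83.2 to 104 in A1471, with a log2 difference of -0.20 ± 0.24 with the block. Col8a1, of a network-forming type, was at 3.87 to 16.6 TPM. Col23a1, a transmembrane collagen, was expressed in A1129 (169 to 288 counts, against at most 21 elsewhere). Col20a1 had at most 29 counts and lies over a gene read from the same strand with 906 counts in all, so its values are uncertain. Col17a1, the hemidesmosome collagen of basal epithelium, had at most 16 counts.

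The inhibitors alone were compared with the same DMSO libraries, so that their values share the controls of the combination. With PD173074 no member was called in the unpaired fit of edgeR (0.0% of genes were, in either direction), 1 had an unadjusted p under 0.05 (2.22% of genes) and DESeq2 called none of the 22 it tested. With the block 8 members rose, where 1.62% of genes did, and none fell, where 0.52% did. These were Col3a1 (log2 fold change 1.17 ± 0.20), Col1a1 (1.30 ± 0.24), Col1a2 (1.89 ± 0.32), Col11a1 (3.75 ± 0.77), Col4a5 (0.98 ± 0.21), Col6a1 (1.08 ± 0.19), Col6a2 (1.58 ± 0.27) and Col12a1 (2.63 ± 0.57), at adjusted p between 0.0171 and 0.0471. The value for Col11a1 was 6.50 without A1129 and 1.90 without A1471, and that for Col12a1 was 3.67 without A1005. None of the 8 was called with the block when A1471 was left out, 3 were when A1129 was and 2 when A1005 was. Over all genes, in either direction, those fits called 4, 131 and 59, against 296 with the block and all lines.

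With Crizotinib no member was called in edgeR's unpaired fit, with the block (0.0% of genes) or by DESeq2, and none had an unadjusted p under 0.05 (0.13% of genes). The fitted log2 differences of the type IV chains lay between 0.08 and 0.12 with the block, and that of Col3a1 was 0.08 ± 0.20. For the low-count FACIT chains Col12a1 and Col20a1 the differences were -0.88 ± 0.69 and 1.18 ± 0.71. The errors of these values do not separate them from 0, which does not show that Crizotinib had no effect on them.

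The combination was then compared with each inhibitor. Against Crizotinib, edgeR called 1 member (Col6a1) higher without the block, against 5.4% of genes, and DESeq2 5 (Col6a1, Col6a2, Col11a2, Col12a1 and Col27a1), against 9.54%. With the block 15 were higher (27.4% of genes) and 2 lower (26%). Those lower were Col18a1 (-1.21 ± 0.33, adjusted p = 0.0107) and Col23a1 (-0.99 ± 0.36, adjusted p = 0.038). Against PD173074 no member was called in edgeR's unpaired fit (4.77% of genes were, in either direction), 1 had an unadjusted p under 0.05 (18.9%), and DESeq2, which tested 19 members, called Col11a2 higher (4.05% of genes). With the block 7 members were higher with Combo than with PD173074, against 19.6% of genes. They were Col4a6 (1.33 ± 0.18, adjusted p = 0.00043), Col4a5 (1.12 ± 0.21, adjusted p = 0.00263), Col11a1 (2.26 ± 0.57), Col12a1 (1.70 ± 0.48), Col11a2 (1.77 ± 0.50), Col27a1 (0.94 ± 0.29) and Col3a1 (0.63 ± 0.20). For Col6a2 the 2 treatments differed by 0.10 ± 0.26, with no call.

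Whether the pair of inhibitors gave more than their separate effects added on the log2 scale was tested as a departure from additivity. No member was called in edgeR's unpaired fit (0.00723% of genes were, upwards), 1 had an unadjusted p under 0.05 (9.03%) and DESeq2 called none of the 18 it tested. With the block a positive departure was called for 2 members, against 5.46% of genes. They were Col4a6 (1.21 ± 0.25, adjusted p = 0.0125) and Col4a5 (1.03 ± 0.29, adjusted p = 0.0392). The fitted value, called or not, was above 0 for 24 of 26 members and for 7244 of 13836 genes. With the block 2 members were called without A1005, and none without A1129 or A1471. Over all genes, in either direction, those fits called 1679, 496 and 423, against 2241 with all lines. For the fibrillar chains the departure ranged from 0.15 to 2.0, and no adjusted p was below 0.0921. Col12a1 had the largest value (2.58 ± 0.83, adjusted p = 0.0601).

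The genes that process collagen or act beside it were followed from a list of 71, of which 58 were tested. With Combo 5 were higher and 2 lower without the block, and 23 were higher and 11 lower with it, among 58. Over all genes 6.1% were higher and 8.28% lower without the block, and 28.6% and 26.2% with it, and the counts of each list that follow are to be read against these shares. The median log2 fold change of the 58 was 0.24 without the block. With PD173074 none was called without the block and 4 were higher with it (Pcolce, Lox, Scx and Creb3l1).

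In procollagen trimming, 1 of 4 tested genes rose and 2 fell with the block. Pcolce, which speeds removal of the C-propeptide, went from 253 ± 51.0 CPM (SD, n = 3) with DMSO to 453 ± 105 with PD173074 and 602 ± 128 with Combo, and was higher with Combo in all 3 lines (log2 fold change 1.25 ± 0.26, adjusted p = 0.0114). Adamts14, an N-propeptidase, fell from 36.4 ± 11.1 to 14 ± 4.55 CPM (adjusted p = 0.0328). Among the cross-linking enzymes Tgm2, a transglutaminase, rose from 135 ± 94.6 to 825 ± 366 CPM (2.61 ± 0.75, adjusted p = 0.045) and Loxl3, a lysyl oxidase, fell from 33.3 ± 5.24 to 14.5 ± 3.55 CPM (adjusted p = 0.0209). Over the 6 cross-linking genes 3 rose and 1 fell with the block. Lox was at 481, 361, 1087 and 1303 CPM in A1005 and at most 2.28 CPM elsewhere, a distribution like that of the type I chains, and rose with the block (1.33 ± 0.26, adjusted p = 0.0018). Loxl4 rose with the block (3.18 ± 0.78, adjusted p = 0.00601), and was not called with it when A1129 (2.12 ± 0.89, adjusted p = 0.0992) or A1471 (3.03 ± 1.05, adjusted p = 0.062) was left out. Without the block DESeq2 called it (adjusted p = 0.00151) and edgeR did not (adjusted p = 0.0525). It went from 20.6 to 459 CPM in A1129 and from 7.80 to 95.2 in A1471, and stood at 39.2 and 52.1 in A1005.

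Of 14 hydroxylation genes tested 3 rose and 3 fell with the block, and none was called without it, shares below those over all genes in both directions. Of 11 folding and secretion genes 2 rose and 2 fell with the block, and their median log2 fold change was 0.12 without it. In both lists rises and falls were equal in number. Of 5 turnover genes tested 3 rose and 1 fell with the block. Among them Mmp14, a membrane-bound collagenase, rose from 118 ± 43.0 to 523 ± 416 CPM (2.14 ± 0.64, adjusted p = 0.0492). Of the 6 basement membrane partners 5 rose and 1 fell with the block. Agrn, a heparan sulphate proteoglycan, rose from 103 ± 10.3 to 188 ± 62.0 CPM (adjusted p = 0.0325), and Sparc, a collagen-binding glycoprotein, from 391 ± 247 to 1398 ± 346 CPM with the block (2.02 ± 0.33, adjusted p = 0.000552).

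Of 6 collagen receptor genes tested 3 rose with the block and none fell. The collagen-activated kinase Ddr1 went from 60.6 ± 51.3 to 203 ± 91.4 CPM (2.03 ± 0.24 with the block, adjusted p = 8e-05) and the integrin chain Itga10 from 6.38 ± 4.07 to 30.6 ± 22.5 CPM (2.14 ± 0.32, adjusted p = 0.000332). Of 6 regulators tested 3 rose and 1 fell with the block. Scx, the tendon transcription factor, rose from 10.1 ± 3.27 to 42.1 ± 15.9 CPM (2.06 ± 0.44, adjusted p = 0.0131), with log2 changes of 2.11, 2.03 and 1.93 in A1005, A1129 and A1471. Creb3l1, a transcription factor of the secretory pathway, was at 3.36 CPM with DMSO and 29.2 with Combo in A1005 and at most 1.06 in the other lines (3.21 ± 0.30 with the block, adjusted p = 2.4e-05).

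The 6 processing genes named from the blocked fit alone had the largest absolute changes among those edgeR did not call without the block, and all were rises. Among the falls with the block, chosen here after their values were seen, were Pcolce2 (-1.30, adjusted p = 0.00483), Plod2, a lysyl hydroxylase (-1.28, adjusted p = 6.22e-05), Mrc2, a collagen uptake receptor (-0.92, adjusted p = 0.000401), P4ha1, a prolyl hydroxylase chain (-0.75, adjusted p = 0.000285), and Kdelr2, which returns proteins to the endoplasmic reticulum (-0.75, adjusted p = 0.000115).

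The summed CPM of the 8 mesenchymal markers was 3178 to 4574 in DMSO and 2461 to 8585 in Combo libraries, ranges that overlap. That of the epithelial markers was 16.1 to 39.6 and 7.32 to 42.2, and that of the blood cell markers 4.41 to 31.3 and 8.45 to 42.3. The part of these shifts in the collagen values was not tested.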

How the data were processed

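RNA was measured in tumourspheres of 3 mouse cell lines under 4 treatments (n = 3 lines each). Groups and lines were taken from the sample labels. The authors sequenced on a NextSeq500, aligned reads to mm10 with STAR and deposited raw counts, whole numbers of reads per gene without normalisation. Their processing notes also name bcl2fastq and HTSeq. The counter's strand setting and the annotation release are not given in the sources used here. Overlapping genes are therefore uncertain, and the same holds for reads shared between paralogs.

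Low counts were removed by edgeR's filterByExpr, set to at least 10 counts and 15 in total. After TMM normalisation, treatment was fitted without pairing, as in the study's methods, across the 12 libraries (edgeR 4.0.16, quasi-likelihood, run under R 4.3.3). P-values were adjusted by Benjamini and Hochberg's method over all 13836 genes tested, with a threshold of 0.05. The SE beside an edgeR value is its absolute log2 fold change divided by the square root of the test's F statistic. It is thus derived from the test on all libraries fitted, and is not a spread over the libraries of a group. The alternative fit had the line as a block. The block is warranted because same-numbered libraries come from the same line. Deviations from the treatment means correlated at a mean of 0.871 (lowest 0.766) over 18 pairs of libraries of 1 line. Over 36 pairs of different lines the mean was -0.422. That negative sign follows from taking deviations from a mean of the same lines, and is no further support for the block. DESeq2 1.42.0, its size factors, no filter, the compared groups alone and leaving out each line were also tried. A correlation or a p for the members as a list was not computed.

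TPM used exon lengths of the GENCODE M21 annotation of the same build, which may not be the authors' release. Log2 CPM used a prior count of 2. Library totals ran from 13031492 to 17750476 counts, and the floor for a gene was taken as 3 counts, which covers counting error only, as reads carry no molecular identifiers. Promoter windows came from RefSeq (GRCm38.p6). The scripts were tested on simulated data. Tables and plots were made with Python 3.11.15, pandas 2.3.3, numpy 2.4.6 and matplotlib 3.10.9.

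The collagen members and the lists of processing and marker genes were chosen with earlier results of these data known. Any member could be named. Of the 71 processing genes, those past an adjusted p of 0.05 with Combo were named, with up to 6 more by the blocked fit, in order of absolute log2 fold change. The falls named beside them were added after their values were seen.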

Additional observations from a re-analysis of the deposited data

Results flagged for a closer look

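In 4 members the lines moved in opposite directions with Combo against DMSO, by a log2 change of at least 0.2 each way in lines with at least 20 counts, as did 9.8% of all genes tested. These limits were set after the values were seen. The difference between lines was not tested, since each line had 1 library per treatment. Col4a1 was 0.63 higher in A1005 and 0.48 lower in A1129 on the log2 scale, a gap of 1.11. Col4a2 was 0.52 higher in A1005 and 0.39 lower in A1129 (a gap of 0.91). For Col16a1, the change was -0.98 in A1129 and 0.35 in A1471 (a gap of 1.33). For Col6a3, it was 1.54 in A1005 and -0.23 in A1471 (a gap of 1.77).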

How the results depend on the processing

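Counts of called members are given by setting. For Combo against DMSO, 26 members were tested in the unpaired and the blocked fit, with DESeq2's size factors and without A1471, 27 with no filter, 25 without A1129, 24 with the compared groups alone, 23 with DESeq2 and 21 without A1005. For Combo against DMSO, the count of 1 became 17 with the replicate block, 5 with DESeq2 and 0 with only the compared groups. It was 0 to 7 when a line was left out and 11 to 15 when a line was left out with the block. Over all genes the unpaired fit called 1990, the block 7578, DESeq2 2948 and the compared groups alone 594. When a line was left out the totals were 120 to 2021, and 5153 to 6823 with the block. For Combo against Crizotinib, the count of 1 became 17 with the block, 5 with DESeq2 and 0 with the compared groups alone. It was 0 to 6 without a line and 13 to 14 without a line with the block. Over all genes the totals, in the same order from the unpaired fit, were 1823, 7389, 2856, 616, 109 to 1835 and 4880 to 6545. For PD173074 against DMSO, the count of 0 became 8 with the block and 0 to 3 without a line with the block. Over all genes those 2 totals were 296 and 4 to 131, and the unpaired fit called 0. For Combo against PD173074 the count of 0 became 7 with the block, 1 with DESeq2 and 3 to 8 without a line with the block. Over all genes the unpaired fit called 660, and the others 5506, 1455 and 2352 to 4734. For the departure from additivity the count of 0 became 2 with the block and 0 to 2 without a line with the block. Over all genes the unpaired fit called 127, and the others 2241 and 423 to 1679. For Crizotinib the count stayed at 0 in every setting run. DESeq2's size factors and no filter changed no count. The causes of these changes were not tested.

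Among single members, the direction turned in 5 that were not called in the unpaired fit. With the block the log2 difference of Combo from DMSO was 0.00 for Col4a1 (0.0019), 0.0823 for Col4a2 and 0.71 for Col6a3. When a line was left out, with or without the block, the difference ran from -0.37 to 0.22 for Col4a1, from -0.14 to 0.29 for Col4a2, from -0.50 to 0.15 for Col16a1, from -0.14 to 1.34 for Col6a3 and from -0.81 to 0.0721 for Col23a1. With DESeq2 and with its size factors they were 0.0117 and 0.0136 for Col16a1 and 0.0092 and 0.0133 for Col6a3.

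Counts of 0 to 10 in A1129 and A1471 limit what can be said of Col1a1, Col1a2 and Col5a2 outside A1005, as do 1 to 6 counts of Col5a3 in A1129. With 1 library per line and treatment, a line's own response has no replicate.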
